A study of Zea mays with 4 samples.

Results

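The miRNAs of families miR168 and miR162 were examined in the small RNA of maize (Zea mays) root tips, in a table of 576 miRNA entries. The members were all entries whose name begins with zma-miR168 (zma-miR168a-5p, zma-miR168a-3p, zma-miR168b-5p and zma-miR168b-3p) or zma-miR162 (zma-miR162-5p and zma-miR162-3p). These were 6 of 576 entries, of which 321 were known miRNAs and 255 were candidates, and the species prefix is dropped below. The groups were early primary root (PRY, 3 days after germination), later primary root (PRO, 15 days), seminal root (SR, 7 days) and crown root (CR, 15 days), each with 1 library. All came from seedlings of cultivar Zhengdan 958 in Hoagland's solution, with no treatment named, and tips of 1 cm were sampled. The labels do not say how many seedlings went into a library. Primary and seminal roots form in the embryo, and crown roots arise from the shoot.

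In plants, the Dicer-like enzyme DCL1 cuts miRNAs out of hairpin precursors, and the Argonaute protein AGO1 carries the guide strand to its target transcripts. Both proteins are held in check by miRNAs that they make or carry: miR168 directs cutting of AGO1 transcripts and miR162 directs cutting of DCL1 transcripts, loops known best from Arabidopsis. Each hairpin yields a 5p and a 3p strand; the guide is the 5p strand for miR168 and the 3p strand for miR162, and the partner strand is mostly degraded. The transcripts of AGO1 and DCL1 were not measured here.

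Values are RPM, reads for every 1000000 reads of a library total, and the reads behind them could be recovered as whole numbers. The totals lay between 10721082 reads in PRY and 11572637 in SR, so 1 read was worth 0.0864 to 0.0933 RPM. No group had a replicate, so differences compare libraries and no p-value is given. Intervals are 95% exact intervals and, for lack of replicates, cover the counting error of reads only. Reads made by PCR and counted without molecular identifiers can be copies of 1 molecule, so the intervals can be too narrow. The root label could not be checked against marker genes, because the table lists miRNAs alone. In a bulk sample, fewer cells with a miRNA and less of it per cell cannot be told apart.

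The guide strand of miR168 led every library. Reads of miR168a-5p numbered 724320 in PRY and 664583 in PRO, against 550039 in SR and 560411 in CR, and miR168b-5p had the same numbers. Reads of the 5p strand therefore could not be assigned to either of the 2 miR168 loci that the RefSeq annotation of maize names. The next entry of another family was miR156d-5p in PRY and miR166a-3p elsewhere. miR168a-5p exceeded that entry 3.25-fold in PRY (3.23 to 3.26), 5.14-fold in PRO (5.11 to 5.17), 4.94-fold in SR (4.91 to 4.97) and 5.15-fold in CR (5.11 to 5.18). The lead was thus narrowest in the early primary root, and it does not depend on how libraries are scaled.

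The 3p strands of miR168 were about 3 orders of magnitude scarcer. For miR168b-3p the level was 64.0 RPM in PRY and 58.5 in PRO, against 42.9 in SR and 67.5 in CR. For miR168a-3p it was 23.4 RPM in PRY and 17.5 in PRO, against 11.2 in SR and 22.5 in CR. With the library total, both partner strands were lowest in the seminal root, and PRY and CR were close to each other for each of them. With 5 other scalings, described further on, miR168b-3p in SR lay above PRY in 3, and CR lay above PRY by up to 1.42 (miR168b-3p) and 1.26 (miR168a-3p) in log2(RPM + 1). With the library total the intervals of PRY and CR overlapped, at 59.3 to 69.0 and 62.7 to 72.5 RPM for miR168b-3p.

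miR162 was close to the detection limit. Its guide strand miR162-3p had 2 reads in PRY and 5 in SR, against 12 in PRO and 11 in CR, or 0.187, 0.432, 1.09 and 1.01 RPM. Its partner miR162-5p had 2 reads each in PRO and SR and 0 in PRY and CR, where a floor of 3 reads is 0.280 and 0.275 RPM and the exact upper limits are 0.344 and 0.338 RPM. Both libraries of 15 days had more miR162-3p reads than the younger ones. The ratio to PRY was 5.82 in PRO (1.30 to 53.5), 5.40 in CR (1.18 to 50.1) and 2.32 in SR (0.38 to 24.3), an interval that includes 1. The ratio of CR to SR was 2.33 (0.75 to 8.56), that of SR to PRO 0.40 (0.11 to 1.21) and that of CR to PRO 0.93 (0.37 to 2.30), so counting error separates neither of the 15-day libraries from SR, nor both from each other. Neither strand reached 10 RPM, and both are left out of the counts of differences given further on.

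**Figure D1:**
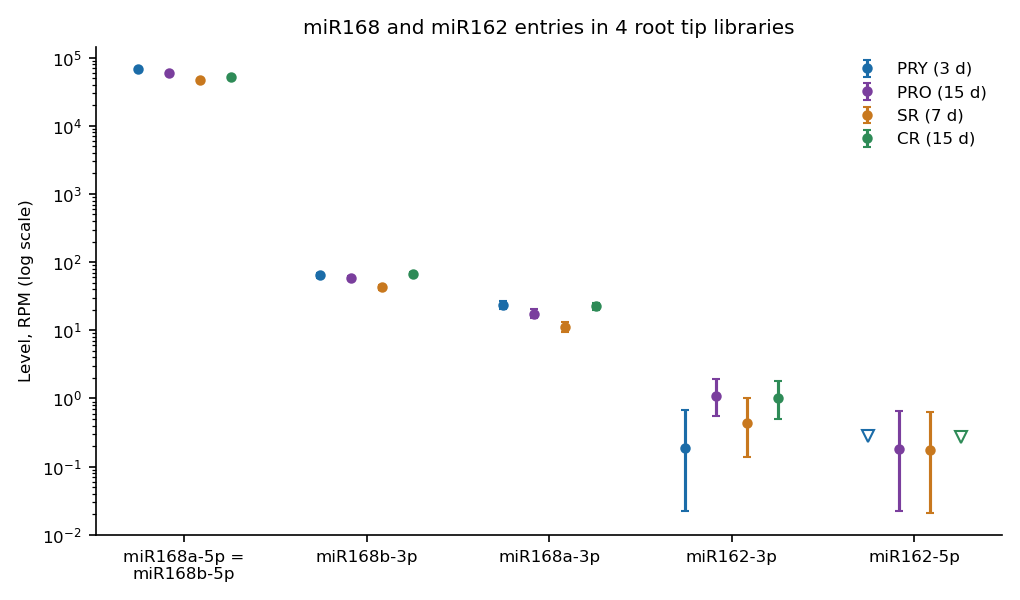
Level of each miR168 and miR162 entry in RPM (log axis) in PRY, PRO, SR and CR, 1 library each; bars are 95% exact Poisson intervals and open triangles mark the limit of 3 reads where a library had 0. The 5p entries of miR168 lie between 47529 and 67560 RPM, the 3p entries between 11.2 and 67.5, and the miR162 entries at 1.09 or less.

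The gap between both guides was therefore wide in all libraries. For each read of miR162-3p there were 362160 reads of miR168a-5p in PRY (100256 to 2990478), 55382 in PRO (31705 to 107181), 110008 in SR (47139 to 338802) and 50946 in CR (28473 to 102058). The intervals of PRO and CR overlapped almost wholly, and that of PRY overlapped both only narrowly. Even the partner strand miR168b-3p exceeded the miR162 guide, by 53.9-fold in PRO (30.7 to 105), where that ratio was lowest. By rank among the distinct entries with reads, miR162-3p was number 245 of 269 in PRY, 155 of 243 in PRO, 216 of 265 in SR and 164 of 272 in CR.

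How much of each library miR168 took up depended on what it was set against. Of the recovered library total, miR168a-5p made up 6.76% in PRY, 6.01% in PRO, 5.13% in CR and 4.75% in SR. Of the reads of distinct miRNA entries it made up 20.2% in PRY (20.1 to 20.2), 25.2% in SR (25.1 to 25.2), 25.5% in PRO (25.5 to 25.6) and 33.1% in CR (33.0 to 33.2). The early primary root thus had the highest share of the total and the lowest share of the miRNA reads, and the crown root had the highest share of the miRNA reads. Distinct miRNA entries themselves came to 33.5% of the total in PRY and 23.6% in PRO, and to 18.9% in SR and 15.5% in CR. Near-identical entries of large families still count some reads repeatedly in that sum. Set against the highest entry of each known family only, the share was 63.5% in PRY, 65.9% in PRO, 75.8% in CR and 66.3% in SR. CR was highest and PRY lowest with each of these 4 denominators made of miRNA reads, while PRO and SR changed places. The 4 overlap and all include miR156 entries, so they are not independent. Against the miRNA total without miR156, a scaling described further on, CR stayed highest but PRY was not lowest. The difference of miR168a-5p from PRY in log2(RPM + 1) was then 0.104 for CR, -0.019 for PRO and -0.004 for SR.

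**Figure D2:**
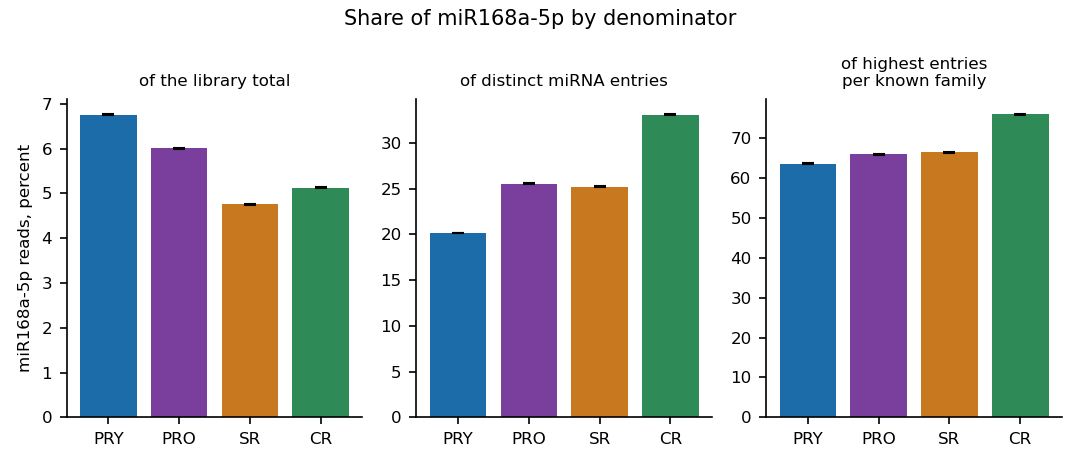
Reads of miR168a-5p as a percent of the library total (left), of all distinct miRNA entries (middle) and of the highest entries per known family (right), in 1 library per group; bars start at 0 and error bars are 95% exact binomial intervals. PRY is highest at 6.76% on the left, and CR is highest at 33.1% in the middle and 75.8% on the right.

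Both strands of a hairpin can be compared within 1 library, which needs no scaling. For every 10000 reads of the 5p strand, miR168b-3p had 9.47 reads in PRY (8.78 to 10.2), 9.74 in PRO (9.00 to 10.5), 9.02 in SR (8.24 to 9.85) and 13.2 in CR (12.2 to 14.1). miR168a-3p had 3.47 in PRY (3.05 to 3.92), 2.92 in PRO (2.52 to 3.36), 2.36 in SR (1.97 to 2.81) and 4.39 in CR (3.86 to 4.97). Both partner strands were most frequent, relative to the guide, in the crown root library. The 5p reads of both loci are pooled, so these are not the 3p shares of single hairpins.

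The excess in CR was larger than counting error in all 3 comparisons for each strand. For miR168b-3p the ratio of 3p to 5p reads in CR was 1.39 times that of PRY (1.25 to 1.54), 1.35 times that of PRO (1.22 to 1.50) and 1.46 times that of SR (1.30 to 1.63). For miR168a-3p it was 1.27 times that of PRY (1.06 to 1.51), 1.50 times that of PRO (1.25 to 1.82) and 1.86 times that of SR (1.50 to 2.30). These comparisons share the CR library. Among PRY, PRO and SR, miR168b-3p showed no difference beyond counting error, while miR168a-3p was lower in SR than in PRY, at 0.68 times (0.55 to 0.84).

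**Figure D3:**
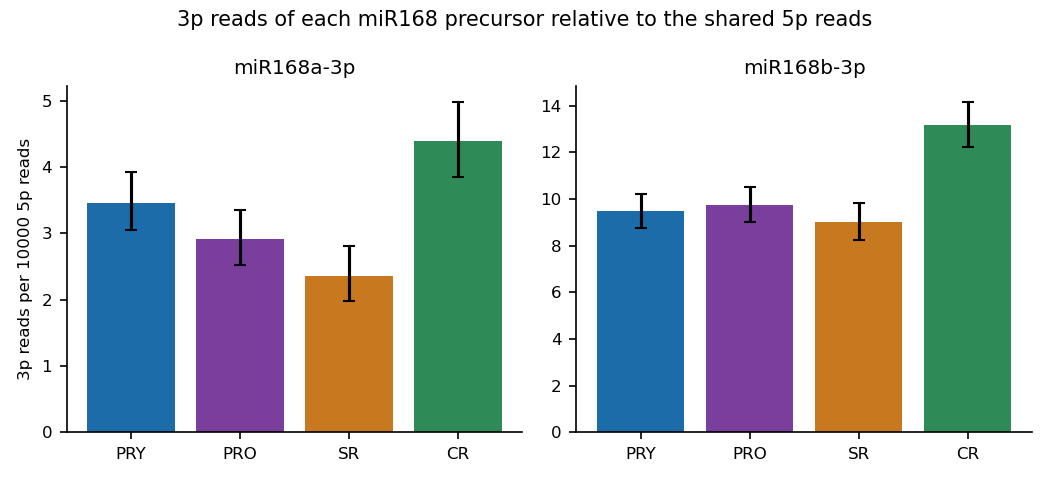
Reads of miR168a-3p (left) and miR168b-3p (right) for every 10000 reads of the 5p strand in PRY, PRO, SR and CR, 1 library each; bars start at 0 on separate scales and error bars are 95% exact intervals. CR is highest on both sides, at 4.39 and 13.2.

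Between the 3p strands, that of miR168b had more reads than that of miR168a in each library. Whether a read was counted for both 3p entries is not known, and the output of each locus was not measured. miR168b-3p exceeded miR168a-3p 2.73-fold in PRY (2.36 to 3.17), 3.34-fold in PRO (2.84 to 3.94), 3.82-fold in SR (3.14 to 4.66) and 3.00-fold in CR (2.59 to 3.48). The ratio in SR was 1.40 times that in PRY (1.10 to 1.78), and CR was 0.79 times SR (0.62 to 0.9993), an interval that narrowly excludes 1. The other 4 pairs of libraries had intervals that include 1.

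The arms of miR168 were set beside 58 other hairpins of 11 families that had both arms listed and at least 100 reads in each library. The mean share of the minor arm over the 4 libraries was 0.033% for miR168a and 0.103% for miR168b. That of the other hairpins had a median of 0.053%, with 28 below both miR168 hairpins, 7 between them and 23 above both. It ranged from 0, in 10 hairpins without a read of the minor arm, to 43.7% in miR169b, of a family that targets NF-YA transcription factors. The miR168 shares were thus in the middle of this ranking, which does not measure strand bias evenly. Shallow hairpins cannot resolve such small shares: miR164a, without a minor-arm read, had 383 reads of both arms in PRY. Hairpins of miR156 and of miR166 repeat nearly the same major-arm reads, as in miR156e (217465 reads of both arms in PRY) and miR156h (217474). Both miR168 hairpins likewise share their 5p reads. A maximum in CR was also found elsewhere: of 45 distinct sets of minor-arm shares above 0, 19 were highest in CR, 10 in PRY, 9 in PRO and 7 in SR. A further limit, chosen after the values were seen, was at least 100 minor-arm reads over the 4 libraries together. Of the 16 other hairpins that reached it, 5 were highest in CR, 5 in PRY, 4 in PRO and 2 in SR. Those highest in CR were miR166c, miR167b and 3 entries of miR156 (miR156d, miR156f and miR156g) with similar values. Their minor-arm reads in CR were 264 for miR166c and 160 for miR167b, but only 24, 21 and 21 for the miR156 entries. The counts for PRY and PRO hold near-equal entries too. In PRY, miR167h and miR167i had 1980 minor-arm reads each, and miR169a and miR169b had 188 and 189. In PRO, miR172b and miR172d had 295 and 296.

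Pairs of libraries were compared over the entries with a level of 10 RPM or above in either library. A difference in log2(RPM + 1) of at least 1, which is 2-fold on that scale, was counted as higher or lower. All 4 miR168 entries reached the minimum in each of the 6 pairs, and 0 of them were counted as different in any pair. With 1 library per group no count from a test exists. Over all entries, 35.3% of 102 differed in PRO against PRY, 47.5% of 101 in SR against PRY, and 41.6% of 101 in CR against PRY. The shares were 25% of 92 in CR against SR, 31.6% of 95 in CR against PRO, and 19.6% of 97 in SR against PRO. Comparisons with a common library are not independent.

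The largest difference of a miR168 entry fell just short of the limit. miR168a-3p had 130 reads in SR against 251 in PRY, a ratio of reads of 0.480 (0.385 to 0.595) after scaling, and a difference of -0.997 in log2(RPM + 1). With a pseudocount of 0.1 it was counted. It was 2.01-fold higher in CR than in SR (1.61 to 2.50), or 0.94 on the log2 scale. The guide miR168a-5p differed least between CR and SR with the library total, 1.08-fold higher in CR (1.08 to 1.08).

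Directions against PRY depended on the scaling for most miR168 entries. On the log2(RPM + 1) scale miR168a-5p differed by -0.17 in PRO, -0.51 in SR and -0.40 in CR with the library total. With 5 other scalings it ran from -0.02 to 0.44 in PRO, from -0.03 to 0.42 in SR and from 0.08 to 0.97 in CR, so that its sign turned in 4, 3 and 5 of them. Those scalings were the miRNA total, TMM factors, DESeq2 factors, and the miRNA total without miR156 or without miR168. They moved the median of all entries tested by 0.15 to 0.59 in PRO against PRY, by 0.45 to 0.88 in SR against PRY and by 0.47 to 1.34 in CR against PRY. miR168a-3p in SR was the entry that stayed below PRY with every scaling, at -0.997 to -0.128, and miR168b-3p in CR stayed above PRY, at 0.08 to 1.42.

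**Figure D4:**
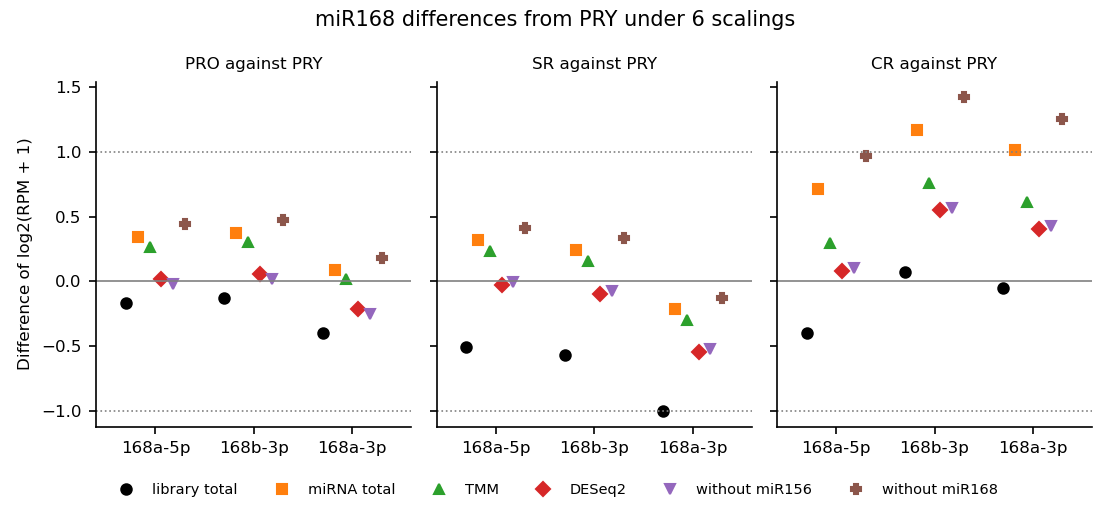
Difference of log2(RPM + 1) from PRY for 3 miR168 entries in PRO, SR and CR under 6 scalings (black circles, library total); solid lines mark 0 and dotted lines the limit of 1, with 1 library per group and no error bars. Entries shift together by scaling: miR168a-5p runs from -0.40 to 0.97 in CR.

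Relative to the median of the entries tested, the guide differed by at most 0.25 with the library total. With the library total, miR168a-5p differed from that median by 0.00 in PRO against PRY, 0.14 in SR against PRY, 0.25 in CR against PRY, 0.06 in CR against SR, 0.08 in CR against PRO and 0.00 in SR against PRO. In PRO against PRY and in SR against PRO the guide, listed as 2 identical entries, was itself the median. The values of 0.00 there compare it with itself and carry no information. The partner strands stood further above the median in CR. miR168b-3p exceeded the median by 0.72 in CR against PRY, 0.59 against SR and 0.51 against PRO. miR168a-3p exceeded it by 0.59, 0.89 and 0.65 in the same order. Entries with a higher difference than miR168a-3p numbered 37 of 101 in CR against PRY, 8 of 92 against SR and 10 of 95 against PRO. For miR168b-3p they numbered 34 of 101, 15 of 92 and 18 of 95.

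Other miRNAs tied to the silencing pathway were read from a list of 25 entries that also held miR390, miR2118 and miR2275. The last 2 families trigger phased siRNAs in reproductive tissue of grasses and had at most 1 read per entry in any library. miR390, which acts with AGO7 to start trans-acting siRNAs, had equal values for miR390a-5p and miR390b-5p. They had 834 reads in PRO, 558 in SR, 484 in PRY and 366 in CR. These 2 entries were counted as lower in CR against PRO, 2.25-fold (1.99 to 2.55), with none of the 5 other scalings keeping the call, where 28.4% of all entries were lower. With the 4 miR168 entries, 6 of the 25 reached the minimum in each pair, and in the other 5 pairs 0 were higher and 0 lower with the library total. In PRO against PRY miR390a-5p differed by 0.73 with that total and was counted as higher with 3 of the 5 other scalings, at 1.15 to 1.32. The median of those 6 was -0.15 in PRO against PRY, -0.51 in SR against PRY and -0.40 in CR against PRY, beside -0.17, -0.65 and -0.64 over all entries. It was 0.11 in CR against SR, -0.23 in CR against PRO and -0.52 in SR against PRO, beside 0.05, -0.31 and -0.34. Those 6 entries belong to miR168 and miR390 alone, so with 1 entry per family the median rests on 2 values. It then changed sign in PRO against PRY (0.28) and in CR against SR (-0.20), and moved to -0.69 in CR against PRO and -0.21 in SR against PRY.

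The known miRNAs with the profile most like that of miR168a-5p were sought among 62 entries with at least 50 RPM in 1 library and reads in all 4. Likeness was the largest gap between centred log2 profiles over the 4 libraries, which does not depend on scaling. The nearest entry of each other family was kept, and the 3 nearest families are given. The closest, with a gap of 0.18, was miR166l-3p, whose family acts on class III HD-ZIP transcription factors. miR396c, which targets growth-regulating factors, and miR156j-5p, of the family that represses SPL transcription factors, followed with 0.37 each. For miR162-3p they were those of miR167a-5p at 0.60, miR164g-5p at 1.08 and miR156k-5p at 1.22. That profile rests on 2 to 12 reads in a library, and the counting interval of miR162-3p spans more than 3-fold in each.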

How the data were processed

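Small RNA of 18 to 30 nt was gel purified, joined to adapters, amplified by PCR (18 cycles) and read on a Solexa instrument, per the labels' protocols. Which aligner and miRNA reference were used is not given in the sources here. The header of the deposited table calls its values TPM. They were treated as RPM normalized by the authors, because the values of a library rose in steps of 1 fixed size: 100% came out as whole reads within 0.01 read. What the totals cover is not known.

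Identical entries of a family were counted once where entries are called distinct (450 of 576). Intervals are Clopper-Pearson, exact Poisson or exact conditional. The code for the calls was tested on simulated data. TMM factors came from edgeR 4.0.16 and size factors from DESeq2 1.42.0, in R 4.3.3; other steps used Python 3.11.15, numpy 2.4.6, pandas 2.3.3, scipy 1.17.1 and matplotlib 3.10.9. edgeR's quasi-likelihood test was not run, for lack of replicates.

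The members, the lists and the rules for named miRNAs were chosen with earlier results of these data known. All members were named, with list entries at 10 RPM and the 3 families nearest in profile. Alternatives covered scaling, pseudocount, minimum, identical entries and denominators.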

Additional observations from a re-analysis of the deposited data

How the results depend on the processing

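No paired analysis was possible because each group had 1 library. For the 4 miR168 entries, 228 differences were recomputed under 10 alternatives: 124 stayed within the counting interval, 104 did not, and 52 changed sign, all of them under another scaling. The 0 counted members became 1 in SR against PRY with a pseudocount of 0.1, 2 in CR against PRY with the miRNA total and also without miR168, 1 and 2 in CR against SR with those scalings, and 1 in CR against PRO without miR168. The count over all entries was within 1.5 times the main one except as follows. Without a minimum it was 110 in PRO against PRY (36 with it), 111 in SR against PRY (48), 126 in CR against PRY (42), 92 in CR against SR (23), 76 in CR against PRO (30) and 83 in SR against PRO (19). With a minimum of 50 RPM it was 26 in SR against PRY, 23 in CR against PRY, 12 in CR against SR and 8 in SR against PRO. More or fewer entries were tested in these. A pseudocount of 10 gave 27 in CR against PRY and 6 in SR against PRO. Scaling gave 30 (miRNA total), 29 (TMM), 28 (DESeq2) and 28 (without miR156) in SR against PRY. It gave 18 (TMM), 16 (DESeq2) and 16 (without miR156) in CR against PRO, and 10, 10, 9, 10 and 10 in SR against PRO, the last without miR168. The cause was not tested. The split of higher and lower calls moved with scaling. With the miRNA total without miR168 it went from 19 and 17 to 34 and 5 in PRO against PRY, 18 and 30 to 34 and 4 in SR against PRY, 17 and 25 to 43 and 3 in CR against PRY, 6 and 17 to 21 and 5 in CR against SR, 3 and 27 to 14 and 10 in CR against PRO, and 2 and 17 to 5 and 5 in SR against PRO. The share of miR168a-5p was 13.7%, 17.0%, 16.8% and 20.8% of all listed entries in PRY, PRO, SR and CR, 20.2%, 25.5%, 25.2% and 33.1% of distinct ones, 20.2%, 25.7%, 25.3% and 33.4% of known distinct ones, and 63.5%, 65.9%, 66.3% and 75.8% of the highest entries per family. The 3p share of miR168b was 0.0946%, 0.0973%, 0.0901% and 0.131%, and with the reads of miR168a-3p added it was 0.129%, 0.126%, 0.114% and 0.175%, highest in CR both ways; whether a read was counted for both 3p entries is not known. Depth limits miR162, with at most 12 reads of an entry per library.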
